A study of Mus musculus with 7 samples.

Results

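Vwc2, Vwc2l, Chrdl1, Smoc1, Smoc2, Bmper, Fst, Fstl4, Fstl5 and Ccbe1 are 10 of the 32285 genes in the count tables, taken by their symbols. Apart from Ccbe1, they encode secreted modulators of bone morphogenetic protein (BMP) signalling or relatives of them. The genes were chosen by measured values of these same nuclei: UMIs per cell class, exclusive use among glutamatergic nuclei, and levels in each replicate of each domain in glutamatergic and GABAergic nuclei. Those values are therefore given as a description, with no test, and tests were kept to non-neuronal classes and to other genes of the pathway. Each symbol matched 1 row.

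BMPs are secreted ligands of the transforming growth factor β family that bind type I and type II receptors, which phosphorylate SMAD proteins that enter the nucleus and change transcription of targets such as the Id genes. Secreted proteins that bind the ligands outside the cell block or redirect them, and several tie them to the matrix. In the adult brain such proteins are known as regulators of neurogenesis, glial maturation and synapses.

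Nuclei came from the posterolateral cortical amygdala (plCoA), an olfactory cortical area whose anterior (aplCoA) and posterior (pplCoA) domains were dissected separately from 8-week-old male C57BL6J mice. The labels name no transgene or treatment, and both domains shared 24 h of isolation from other animals and odours and ketamine and xylazine anaesthesia, while tissue of several mice was pooled for each library. There were 3 replicates per domain, the first of aplCoA in 2 libraries that were summed. Single-nucleus RNA was counted as unique molecular identifiers (UMIs), one for each captured RNA molecule.

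The 7 libraries held 50812605 to 129624583 UMIs, and 46403 nuclei were kept, 27354 from aplCoA and 19049 from pplCoA, with a median of 5153 to 6753 UMIs per library. Pairs of libraries shared 5 to 37 barcodes, at most 0.455% of the smaller. Nuclei fell into 12 classes named by marker genes, and 1 cluster of 42 nuclei, all from aplCoA replicate 3, was left unnamed. Of the glutamatergic nuclei, 9.74% were in 3 clusters with their highest marker score for immature neurons but none of those markers among their leading genes, which took the class of their second score. Levels are the UMIs of a gene per 1000000 UMIs of the class (CPM), and errors are the standard deviation (SD) over replicates. The class called endothelial here held 256 nuclei, 12 of them in aplCoA replicate 2, and carried neuronal RNA: Slc17a7, the glutamate transporter that defines cortical excitatory neurons, was at 161 CPM there and at 211 CPM in glutamatergic neurons. The GABAergic marker Gad2 was at 86.6 CPM there and at 354 CPM in GABAergic neurons. Of its endothelial markers, Cldn5 was highest in this class, at 57.4 CPM, while Cdh5 was at 8.76 CPM there and at 117 CPM in fibroblasts of the meninges and vessels. Barcodes under 100 UMIs, taken as empty droplets, held Vwc2 at 36.3 to 47.4 CPM and Smoc1 at 22.7 to 51.9 CPM, whereas microglia, which should lack both, held 2.03 ± 1.68 and 2.78 ± 1.71 CPM (SD, n = 6).

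The 10 genes used different cell classes. Vwc2 (brorin), a secreted BMP antagonist with von Willebrand C domains, was highest in GABAergic neurons at 318 ± 19.5 CPM and in arachnoid barrier-like cells (ABCs), epithelial-like cells of the meninges, at 312 ± 162 CPM, with overlapping ranges. Oligodendrocyte precursor-like cells (OPCs) followed at 171 ± 14.2 CPM. Endothelial-like cells at 44.8 ± 21.6 CPM and glutamatergic neurons at 28.7 ± 2.92 CPM came next, with overlapping ranges. Its close relative Vwc2l (brorin-like) was largely neuronal, with 99.0 ± 13.6 CPM in GABAergic and 46.5 ± 18.2 CPM in glutamatergic neurons. In OPCs it read 1.28 ± 0.953 CPM, near the 1.18 ± 1.08 CPM of microglia, and endothelial-like cells, where replicates spread widely, read 82.2 ± 88.8 CPM. The pair thus had GABAergic neurons in common, while OPCs and ABCs held Vwc2 and almost no Vwc2l.

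Chrdl1, a chordin-like BMP antagonist known as an astrocyte-secreted factor in cortex, was highest in astrocytes at 17.4 ± 6.17 CPM, followed by glutamatergic neurons at 7.48 ± 5.01 CPM. Its ranges in these 2 classes overlapped, and it was 0.649 ± 0.233 CPM in GABAergic neurons. Bmper, the vertebrate homologue of crossveinless-2, which binds BMPs and can inhibit or promote signalling, was at 187 ± 66.7 CPM in ABCs, 94.9 ± 9.99 CPM in GABAergic neurons and 62.8 ± 9.21 CPM in OPCs, and the ranges of these classes did not overlap. Astrocytes followed at 26.4 ± 3.82 CPM, and glutamatergic neurons read 9.40 ± 7.42 CPM, beside 10.2 to 22.7 CPM in empty droplets.

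Fst, follistatin, which binds activins and some BMPs, was close to absent. It was at 0.175 ± 0.140 CPM in glutamatergic neurons, at 0 in every replicate of astrocytes, mature oligodendrocyte-like cells (MOLs), ABCs, newly formed oligodendrocyte-like cells (NFOLs) and macrophages, and nowhere above the 0.878 ± 2.15 CPM of endothelial-like cells, where 1 of 6 replicates had a UMI. By contrast the follistatin-like genes Fstl4 and Fstl5, secreted proteins of poorly known function that share a follistatin domain with it, were abundant in neurons. Fstl4 was at 496 ± 61.6 CPM in glutamatergic and 125 ± 15.0 CPM in GABAergic neurons, and at 309 ± 227 CPM in endothelial-like cells, where its range overlapped both. Fstl5 was at 297 ± 151 CPM and 332 ± 16.6 CPM, and its ranges in these classes overlapped. In other classes Fstl5 was highest in endothelial-like cells, at 110 ± 50.4 CPM, and in OPCs, at 58.1 ± 9.88 CPM.

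Smoc1 and Smoc2, matricellular proteins of the SPARC family that bind calcium and modulate BMP signalling, were both found in ABCs and in glutamatergic neurons and differed in VLMCs and OPCs. Smoc1 was highest in vascular and leptomeningeal-like cells (VLMCs), fibroblasts of the meninges and vessels, at 428 ± 94.9 CPM, and in ABCs at 327 ± 77.6 CPM, with overlapping ranges. OPCs stood apart below them at 157 ± 9.43 CPM, and MOLs read 49.0 ± 21.3 CPM and glutamatergic neurons 36.7 ± 27.1 CPM. Smoc2 was highest in ABCs at 119 ± 45.4 CPM, then in glutamatergic neurons at 47.3 ± 6.40 CPM, and was 13.2 ± 3.93 CPM in VLMCs and 2.77 ± 1.17 CPM in OPCs. Ccbe1, a collagen- and calcium-binding protein that promotes maturation of the lymphatic growth factor VEGF-C and is not known as a BMP binder, was highest in OPCs at 67.4 ± 7.92 CPM. GABAergic neurons had 35.0 ± 17.3 CPM of Ccbe1 and glutamatergic neurons 23.0 ± 11.2 CPM, with overlapping ranges, and MOLs 0.623 ± 1.01 CPM.

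**Figure D1:**
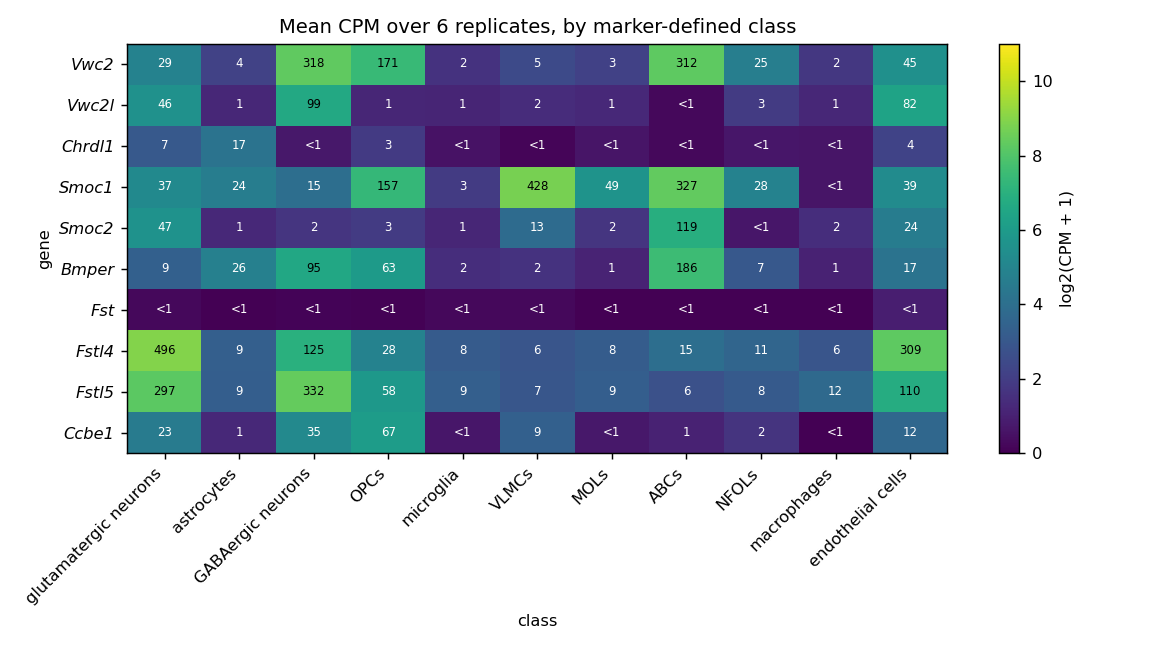
Mean CPM over 6 replicates of the 10 genes (rows) in the 11 classes with at least 10 nuclei in every replicate (columns), with colour giving log2(CPM + 1) and the printed number the mean CPM. Vwc2 stands out in GABAergic neurons, ABCs and OPCs, and Smoc1 in VLMCs, ABCs and OPCs. Fstl4 and Fstl5 stand out in neurons and in the endothelial-like class, which carried neuronal RNA, and Fst in no class.

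Promoter sequence is shown for 2 of the 3 pairs of relatives described above, Vwc2 with Vwc2l and Fstl4 with Fstl5, as 300 bases from 250 before to 50 after the annotated start (RefSeq, GRCm38.p6), of which 5 of the 10 genes, neither Smoc1 nor Smoc2 among them, had an entry. 2 motifs tied to SMAD proteins were searched on both strands and neither overlaps the other: CAGAC, which 49.6% of the 32851 promoters of this length held, and GGCGCC, which 11.9% held. Capitals mark CAGAC or its reverse GTCTG.
Vwc2 (chr11:11113766-11114065, +): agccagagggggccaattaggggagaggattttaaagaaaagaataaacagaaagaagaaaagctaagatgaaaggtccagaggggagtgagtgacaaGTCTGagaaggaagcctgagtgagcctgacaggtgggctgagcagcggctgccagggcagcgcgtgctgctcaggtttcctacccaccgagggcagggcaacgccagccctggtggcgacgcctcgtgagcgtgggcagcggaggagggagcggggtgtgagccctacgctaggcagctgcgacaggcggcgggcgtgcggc
Vwc2l (chr1:70725465-70725764, +): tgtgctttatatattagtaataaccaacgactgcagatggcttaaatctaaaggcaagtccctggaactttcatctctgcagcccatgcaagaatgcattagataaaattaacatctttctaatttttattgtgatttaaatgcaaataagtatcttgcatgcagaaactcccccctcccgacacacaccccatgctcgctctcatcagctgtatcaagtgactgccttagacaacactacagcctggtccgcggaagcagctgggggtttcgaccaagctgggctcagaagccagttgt
Fstl4 (chr11:52764456-52764755, +): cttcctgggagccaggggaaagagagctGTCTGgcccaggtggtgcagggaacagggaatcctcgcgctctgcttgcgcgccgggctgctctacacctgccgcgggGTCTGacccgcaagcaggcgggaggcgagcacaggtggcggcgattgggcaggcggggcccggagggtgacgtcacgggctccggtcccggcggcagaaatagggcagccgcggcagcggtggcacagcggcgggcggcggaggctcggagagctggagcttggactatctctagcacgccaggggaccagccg
Fstl5, upstream of 2 starts (chr3:76074311-76074610, +): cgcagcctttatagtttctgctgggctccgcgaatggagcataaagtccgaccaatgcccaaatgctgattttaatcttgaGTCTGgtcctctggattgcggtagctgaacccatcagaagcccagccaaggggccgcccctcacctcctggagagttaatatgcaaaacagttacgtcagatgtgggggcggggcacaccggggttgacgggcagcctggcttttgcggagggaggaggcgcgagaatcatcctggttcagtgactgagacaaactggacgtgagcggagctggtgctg
Within these windows GGCGCC had no match, CAGAC had 1 match for Vwc2, 0 for Vwc2l, 2 for Fstl4 and 1 for Fstl5, and the GC content was 61.7% for Vwc2 against 44.3% for Vwc2l, and 71.3% for Fstl4 against 56.7% for Fstl5. The window of the other Fstl5 start (chr3:76075333-76075632, +), not shown, had 2 CAGAC matches and a GC content of 39.7%, so that the contrast with Fstl4 depends on the start. A match is a description of the letters and not a binding site.

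All 10 genes are annotated as protein-coding on GRCm38, the assembly also called mm10 (GENCODE vM21). Vwc2 spans chr11:11114223-11268931 (+) and Vwc2l chr1:70725715-70885397 (+). Chrdl1 lies at chrX:143285674-143394262 (-) and Bmper at chr9:23223076-23485200 (+). Fst, at chr13:114452290-114458951 (-), spans 6.66 kb, the shortest of the 10, and Fstl5, at chr3:76074270-76710019 (+), spans 636 kb, the longest. Fstl4 is at chr11:52764634-53188538 (+), Smoc1 at chr12:81026808-81186414 (+), Smoc2 at chr17:14279506-14404790 (+) and Ccbe1 at chr18:66045302-66302741 (-). Intronic reads were counted, so that a long gene offers more RNA to capture. Per kilobase of gene span, the glutamatergic level of Fstl4 was 1.17 CPM, that of Fstl5 0.468 CPM, and that of Fst 0.0263 CPM.

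In glutamatergic neurons, 8 of the 10 genes passed the filter of a UMI in at least 10% of nuclei of either domain. The 3 aplCoA replicates lay above the 3 pplCoA replicates for 4 of them, against 31.4% of the 9720 genes that passed, and below them for 2, against 12.0%. Levels were part of the choice of the genes, so nothing is read from these counts. The fitted fold changes and standard errors (SE) given below for neurons come from the same kind of fit as the tests. For these chosen genes they are a description and not evidence of a difference.

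Bmper differed by the largest factor among the 8. Its aplCoA replicates were at 17.4, 16.7 and 13.9 CPM and its pplCoA replicates at 4.89, 1.70 and 1.79 CPM. The means were 5.73-fold apart, with a fitted log2 fold change (aplCoA over pplCoA, as throughout) of 2.37 ± 0.34 (SE). Without pplCoA replicate 1, the highest of its domain, the log2 ratio of the means went from 2.52 to 3.20. Vwc2l was at 56.0, 63.9 and 67.3 CPM in aplCoA and at 37.1, 26.9 and 27.8 CPM in pplCoA, a 2.04-fold difference of means (log2 fold change 0.94 ± 0.13). Vwc2 showed the same order on a smaller scale, with 30.7, 30.8 and 32.0 CPM in aplCoA and 26.8, 27.2 and 24.6 CPM in pplCoA (log2 fold change 0.17 ± 0.07). No replicate of one domain reached the other for any of these 3 genes. Without the 3 clusters that took the class of their second score, the domains overlapped for Vwc2, with means of 29.95 and 29.76 CPM, and the means of Vwc2l were 43.0 and 28.6 CPM, with replicates still apart.

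The follistatin-like pair ran in opposite directions. Fstl5 was at 354, 419 and 483 CPM in aplCoA and at 282, 137 and 110 CPM in pplCoA, so that the first pplCoA replicate lay nearer to aplCoA than the others (log2 fold change 1.17 ± 0.31). Fstl4 was at 436, 425 and 478 CPM in aplCoA and at 522, 588 and 524 CPM in pplCoA (log2 fold change -0.37 ± 0.08). Neither gene's domains overlapped. Fst, with 50 UMIs in the class, had 0.310, 0.326 and 0.266 CPM in aplCoA and 0.0185, 0.0577 and 0.0715 CPM in pplCoA. Empty droplets held it at 8.11 and 3.63 CPM in the libraries of aplCoA replicate 1 and at 0 to 1.09 CPM in the others, and glutamatergic nuclei were above them in aplCoA replicate 2 (0.185 CPM in empty droplets) and in pplCoA replicates 1 and 2 (0).

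Smoc1 was the gene of the set with the largest factor towards pplCoA. It was at 18.6, 12.4 and 19.9 CPM in aplCoA and at 27.7, 77.1 and 64.5 CPM in pplCoA, 3.33-fold higher on the means (log2 fold change -1.80 ± 0.35). The first pplCoA replicate was again the one nearest to aplCoA. Smoc2 did not follow it: aplCoA replicates at 43.2, 53.8 and 38.2 CPM and pplCoA replicates at 46.6, 55.2 and 47.0 CPM overlapped (log2 fold change -0.22 ± 0.14). Ccbe1 overlapped too, with 30.1, 42.5 and 16.8 CPM in aplCoA and 13.3, 19.4 and 16.0 CPM in pplCoA (0.79 ± 0.30), and so did Chrdl1, with 8.85, 17.0 and 4.74 CPM against 4.28, 6.46 and 3.61 CPM. For both genes aplCoA replicate 2 was the highest library and aplCoA replicate 3 lay within the pplCoA range.

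In GABAergic neurons 7 of the 10 genes passed the filter. None of them was higher in every aplCoA replicate, against 19.2% of the 8774 genes that passed, and 2 were higher in every pplCoA replicate, against 9.10%. Ccbe1 was at 24.4, 21.8 and 16.8 CPM in aplCoA and at 35.2, 55.7 and 56.3 CPM in pplCoA, a 2.33-fold difference of means (log2 fold change -1.24 ± 0.19). Vwc2l was at 85.3, 82.8 and 93.5 CPM in aplCoA and at 107, 111 and 114 CPM in pplCoA (log2 fold change -0.40 ± 0.08), the reverse of its order in glutamatergic neurons. Domains overlapped for the other 5, among them Bmper, whose means were 91.5 ± 7.29 CPM in aplCoA and 98.4 ± 12.7 CPM in pplCoA, and Fstl5, with 340 ± 9.13 and 325 ± 20.8 CPM. Smoc1 had 11.6 to 17.3 CPM in aplCoA and 14.7 to 16.9 CPM in pplCoA. Vwc2 had 294 to 326 CPM in aplCoA and 318 to 343.5 CPM in pplCoA, with a fitted log2 fold change of -0.17 ± 0.07. The factors of Bmper, Fstl5 and Smoc1 in glutamatergic neurons thus had no counterpart of that size among GABAergic nuclei of the same libraries, a difference that was not tested because the values chose the genes.

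**Figure D2:**
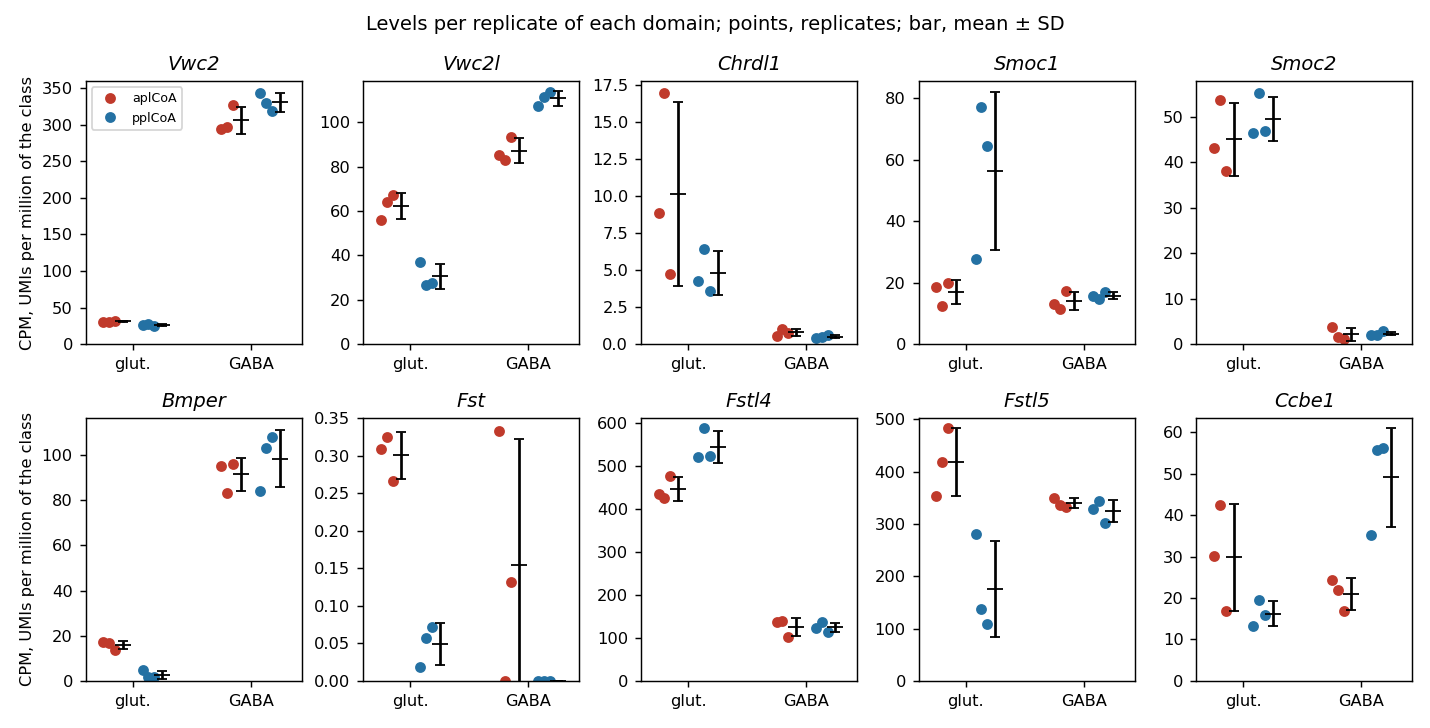
CPM of each of the 10 genes in glutamatergic (glut.) and GABAergic (GABA) nuclei, with 1 point per replicate of aplCoA (red) and pplCoA (blue) and the mean ± SD beside them, on axes that start at 0. Bmper, Fstl5 and Vwc2l are higher in aplCoA and Smoc1 and Fstl4 in pplCoA among glutamatergic nuclei, while Ccbe1 and Vwc2l are higher in pplCoA among GABAergic nuclei.

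A class sum cannot tell fewer nuclei of a subtype from fewer UMIs per nucleus, so glutamatergic and GABAergic nuclei were clustered again without the 10 genes, into 23 and 22 clusters. Clusters are made of the same nuclei, and their values are a description. Ccbe1 and Chrdl1 shared a cluster. Cluster 2, whose leading other genes were Igfn1 and Dach2, with Fign among its first 5, had 1870 nuclei from aplCoA and 98 from pplCoA and held 51.0% of the glutamatergic UMIs of Ccbe1 and 60.9% of those of Chrdl1, in 9.94% of the nuclei. Its levels were 98.4 CPM for Ccbe1 and 36.7 CPM for Chrdl1. The study proposes that a glutamatergic subtype marked by Fign likely came from the cortex-amygdala transition area beside aplCoA. Whether cluster 2 is that subtype, and so lies outside plCoA, was not tested. Cluster 20, of 195 nuclei led by Ror2, had 39.4 CPM of Chrdl1. In cluster 2 the aplCoA replicates had 105, 97.7 and 92.7 CPM of Ccbe1. The pplCoA replicates had 37.5, 2.53 and 132 CPM there, from 54, 25 and 19 nuclei. Cluster 2 held 1087 of 6617, 526 of 1574 and 257 of 3506 glutamatergic nuclei in aplCoA replicates 1, 2 and 3. Outside it Ccbe1 was at 9.49 to 10.7 CPM in aplCoA and 12.9 to 19.6 CPM in pplCoA.

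Smoc1 was highest in a cluster mostly of pplCoA. Cluster 9, led by Moxd1 and Dcn, held 10 nuclei from aplCoA and 1029 from pplCoA, and its 240 CPM of Smoc1 made up 37.1% of the glutamatergic UMIs of the gene. The next of the 22 clusters of at least 100 nuclei was cluster 10, at 82.9 CPM. The cluster had 100 nuclei in pplCoA replicate 1 and 472 and 457 in the others, and its level of Smoc1 in them was 213, 268 and 217 CPM. Outside the cluster Smoc1 was at 12.4 to 19.8 CPM in aplCoA and 22.0 to 34.5 CPM in pplCoA, which did not overlap. How many of all genes were apart there was not computed, so nothing is read from these values. Smoc2 was spread more widely, with 92.4 CPM in cluster 1 (led by Gm34567), 87.3 CPM in cluster 2, 85.0 CPM in cluster 4, 74.98 CPM in cluster 10 and 51.4 CPM in cluster 9.

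Vwc2l was concentrated in cluster 18, led by Prkcq and Pappa2, with 385 nuclei of which 341 were from aplCoA. Its 723 CPM there were 32.9% of the glutamatergic UMIs of the gene in 1.95% of the nuclei. In this cluster aplCoA was at 656, 768 and 715 CPM, from 155, 60 and 126 nuclei, and pplCoA at 878, 868 and 1057 CPM, from 23, 12 and 9 nuclei, too few to set the domains against each other. Cluster 17, led by Gm31698 and Bace2, followed with 243 CPM of Vwc2l and had 320 of its 429 nuclei from pplCoA. Bmper was at 59.6 CPM in cluster 5 (Hmcn1, Rxfp1), 57.7 CPM in cluster 12 (Ebf1), 54.4 CPM in cluster 21 (Trp73, Ndnf), 44.6 CPM in cluster 14 (Ebf2) and 40.6 CPM in cluster 18. In clusters 5, 12, 18 and 21 Slc17a6, the glutamate transporter typical of subcortical neurons, was higher than Slc17a7, with 137 against 15.8 CPM in cluster 5. Of the 1377 nuclei of cluster 5, 1289 were from aplCoA, and pplCoA replicate 1, with 84 of the other 88, had 74.9 CPM of Bmper against 54.2 to 71.1 CPM in aplCoA, while pplCoA replicates 2 and 3 had 3 nuclei and 1 nucleus there, too few for a level.

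Cluster 21, of 152 nuclei led by Trp73, Ndnf and Ebf3, was the one glutamatergic cluster with Fst above 1 CPM. It had 16.6 CPM of Fst, from 11 UMIs, 22.0% of the 50 glutamatergic UMIs of the gene. The aplCoA replicates had 27.3, 11.7 and 11.2 CPM, from 72, 13 and 23 nuclei. The pplCoA replicates, with 24, 11 and 9 nuclei there, had 0. So few UMIs cannot set domains or clusters against each other. The same cluster had the highest Vwc2, 172 CPM, and 95.1 CPM of Ccbe1, and its nuclei had a median of 3728 UMIs, against 12302 UMIs in the class. Fstl5 and Fstl4 were both highest in cluster 6 (Sema3d), at 1075 and 804 CPM. The median over the 22 clusters was 396 CPM for Fstl4 and 208 CPM for Fstl5.

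**Figure D3:**
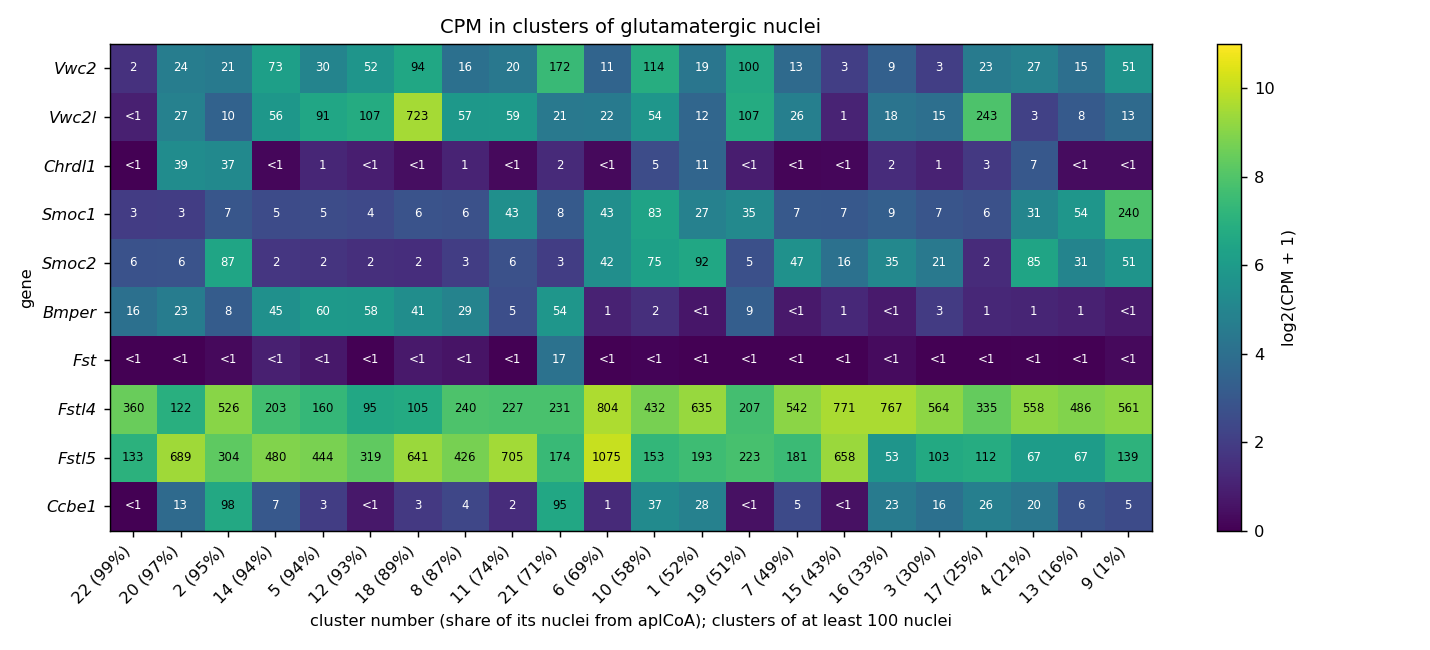
CPM of the 10 genes (rows) in the 22 clusters of at least 100 glutamatergic nuclei (columns), ordered by the share of their nuclei that came from aplCoA, with colour giving log2(CPM + 1) and the printed number the CPM. Bmper sits to the left, in clusters mostly of aplCoA, Smoc1 to the right in cluster 9, and Fstl4 in all columns.

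Among GABAergic clusters, Vwc2 was broader than Vwc2l and Ccbe1. Vwc2 had a median of 340 CPM over the 20 clusters of at least 100 nuclei, against 49.7 CPM for Vwc2l and 4.39 CPM for Ccbe1. Cluster 4, of 372 nuclei led by Aebp1 and the neuropeptide gene Crh, had the highest Vwc2l, 482 CPM, and the highest Ccbe1, 190 CPM, and held 21.8% and 26.2% of the GABAergic UMIs of these genes in 7.32% of nuclei. It had 129 nuclei from aplCoA and 243 from pplCoA. Outside it Ccbe1 was at 12.6 to 19.4 CPM in aplCoA and 30.0 to 42.0 CPM in pplCoA. For Vwc2l, values outside cluster 4 overlapped, with 68.1 to 88.7 CPM in aplCoA and 73.4 to 90.7 CPM in pplCoA. How many of all genes were apart outside cluster 4 was not computed, so nothing is read from these values. Cluster 18, of 125 nuclei led by Fign and Prkcq, had the highest Bmper (504 CPM), Fstl5 (1486 CPM) and Vwc2 (691 CPM). Fstl4 was highest in cluster 19, at 813 CPM, beside the glutamate transporter gene Slc17a8 among its leading genes, and Smoc1 in cluster 13, at 64.7 CPM.

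Detection within single nuclei was compared after thinning every glutamatergic nucleus to 2000 UMIs, which left 19766 of 19791 nuclei. At that depth Fstl4 was seen in 52.6 ± 7.11% of nuclei and Fstl5 in 33.1 ± 13.1% (SD, n = 6), Smoc2 in 8.01 ± 1.47%, Vwc2l in 6.51 ± 1.80%, Smoc1 in 6.27 ± 4.42%, Vwc2 in 5.11 ± 0.386%, Ccbe1 in 3.79 ± 1.62%, Bmper in 1.94 ± 1.54% and Chrdl1 in 1.34 ± 0.913%. Microglia thinned alike had between 0.0399% (Fst) and 1.55% (Fstl5), and Fst in glutamatergic nuclei, 0.0487 ± 0.0413%, was at that level. Median depths before thinning were 12302 UMIs in glutamatergic nuclei and 3183 UMIs in microglia, and unthinned shares of glutamatergic nuclei were higher, 19.2% for Vwc2 for example.

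Of glutamatergic nuclei with any of the 10 genes at 2000 UMIs, 57.8 ± 4.06% had exactly 1 of them, and the product of the separate shares of the genes, replicate by replicate, gives 57.7 ± 4.67% for this. Without Fstl4 and Fstl5, 28.4 ± 3.29% of nuclei had any of the other 8 genes and 85.2 ± 1.29% of those had exactly 1, where the separate shares give 86.8 ± 1.67%. Both shares were lower at greater depth. Of nuclei that were not thinned and had any of the 10 genes, 14.8 ± 3.19% had exactly 1, where the separate shares give 12.2 ± 3.56%. Of those with any of the 8 genes, 50.9 ± 4.45% had exactly 1, where the separate shares give 53.8 ± 5.66%, and at 4000 UMIs the values for the 8 genes were 74.7 ± 2.24% and 77.3 ± 2.54%. Exclusive use was among the values that chose the genes, so these shares were not tested and nothing is read from them.

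Pairs of genes are described in the same way. Chrdl1 and Ccbe1 were seen together in 35.9 nuclei (a mean over 20 thinning draws), 3.42 times as many as the separate shares give (1.70 to 5.40 over replicates). Vwc2 and Vwc2l were together 1.73 times as often (1.43 to 2.13 over replicates), Smoc2 and Ccbe1 2.09 times and Vwc2 and Smoc1 1.81 times. In the other direction, Vwc2l and Smoc2 were together 0.358 times as often (0.292 to 0.559), Bmper and Fstl4 0.575 times (0.517 to 0.984), and Vwc2l and Fstl4 0.651 times (0.549 to 0.743). Counts behind the sparser pairs were low, with 8.20 nuclei for Smoc2 and Bmper where the separate shares give 31.3.

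For likeness, levels were correlated over 51 groups, the 42 neuronal clusters of at least 100 nuclei and 9 non-neuronal classes, with the 8372 genes of at least 50 CPM in a group. The correlations are descriptions over groups that share libraries. Smoc2 was most like Palmd (Pearson r = 0.824) and Trabd2b (0.819). Fstl4 ran with Unc5a (0.841), Gm26871 (0.829) and Rapgefl1 (0.825), and Fstl5 with the imprinted non-coding RNAs Meg3 (0.834) and Rian (0.830) and with B830012L14Rik (0.828). Vwc2 was most like Gm12120 (0.790), Grip1 (0.787) and Grip1os2 (0.780), Vwc2l like Olfm3 (0.719), Thy1 (0.710) and Zim3 (0.685), and Bmper like Gm28175 (0.746), Hjurp (0.739) and Nhs (0.724). Smoc1 was most like Egln3 (0.681), Plce1 (0.661) and Ocln (0.623). Chrdl1, with Meis2 (0.644), G630016G05Rik (0.578) and Gm12239 (0.518), and Ccbe1, with Grpr (0.591), Gm12296 (0.573) and Shisa6 (0.539), had no close partner. Fst followed Nhlh2 (0.880), Lhx1os (0.854) and Gm49027 (0.827), though its highest group was at 16.6 CPM, from 11 UMIs.

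Domain differences in non-neuronal classes were not among the values that the choice of the genes used and were tested, although the 10 genes and the pathway lists were chosen with earlier results of these data known. The quasi-likelihood test of edgeR was run on the sums of each class, with Benjamini-Hochberg adjustment over all its genes. Of the 10 genes, 8 passed the 10% filter in at least 1 of 6 classes, which gave 18 tests. A gene can pass through the domain where it is higher. None of the 18 was called at an adjusted p under 0.05 by edgeR's quasi-likelihood test, which called 1.04% of all tests in the 9 non-neuronal classes, by DESeq2, which called 1.05%, or by edgeR's likelihood ratio test, which called 2.05%. By class, the quasi-likelihood test called 0 of 5968 genes in ABCs, 0 of 6692 in endothelial-like cells and 0 of 7252 in NFOLs. It called 1 of 5740 in VLMCs, 401 of 6187 in OPCs and 108 of 4602 in MOLs. Where almost no gene was called, a missing call does not show that the domains were alike. An unadjusted p under 0.05 was found in 6 of the 18, against 10.0% of all tests in the 9 classes. These were 2 of 5 in OPCs, against 20.1% of genes there, 3 of 4 in ABCs, against 6.57%, and 1 of 5 in endothelial-like cells, against 6.58%. Without the 10% filter, 4 of 84 tests of the 10 genes were called, in astrocytes, ABCs and endothelial-like cells, against 1.04% of all tests.

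In ABCs 4 of the genes were tested. Bmper was at 122, 130 and 145 CPM in aplCoA and at 271, 265 and 187 CPM in pplCoA (log2 fold change -0.82 ± 0.20, edgeR adjusted p = 0.367), and with doublets kept the log2 fold change was -0.43 (edgeR adjusted p = 0.772). Vwc2 was at 231, 226 and 148 CPM in aplCoA and at 580, 436 and 252 CPM in pplCoA (-1.03 ± 0.27, edgeR adjusted p = 0.451; without the filter -0.95 ± 0.21, edgeR adjusted p = 0.00446), and Smoc2 at 89.4, 83.5 and 90.6 CPM against 184, 171 and 97.95 CPM (-0.73 ± 0.24, edgeR adjusted p = 0.663). Replicates of the domains did not overlap for these 3 of the 4, all higher in pplCoA, which held for 8.11% of the genes of the class. Smoc1 overlapped, with 263 to 295 CPM in aplCoA and 271 to 444 CPM in pplCoA. In pplCoA the class had 50 to 57 nuclei per replicate.

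The ABC class joined 2 clusters, and the 4 genes were mostly found in the larger, which expressed the transporter gene Slc47a1. In the smaller, marked by Dpp4 and Dapl1, Bmper and Slc47a1 had no UMI in any replicate, Smoc1 was at 3.56 to 12.1 CPM in aplCoA, and Vwc2 reached at most 54.3 CPM. The smaller cluster had 43, 32 and 73 nuclei in aplCoA and 0, 10 and 8 in pplCoA. In the larger cluster alone, a split made after seeing the data, Bmper was at 136, 184 and 178 CPM in aplCoA and 271, 328 and 224 CPM in pplCoA, and Vwc2 at 251, 297 and 176 CPM and 580, 534 and 302 CPM, so that neither overlapped. Smoc2 did not overlap either, and Smoc1 did (291 to 395 CPM and 319 to 502 CPM). The marker Slc47a1 was apart too, at 1951 to 2080 CPM in aplCoA and 2266 to 2467 CPM in pplCoA. The share of all genes apart in this cluster was not computed, so nothing is read from these values.

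In OPCs 5 of the genes were tested. Bmper was at 59.8, 50.6 and 55.3 CPM in aplCoA and 65.6, 70.4 and 74.9 CPM in pplCoA (log2 fold change -0.36 ± 0.12, edgeR adjusted p = 0.0817). Fstl5 was at 56.1, 43.2 and 53.8 CPM and 57.7, 70.9 and 67.1 CPM (-0.35 ± 0.13, edgeR adjusted p = 0.135), and with doublets kept its log2 fold change was -0.061 (edgeR adjusted p = 0.856). These 2 were higher in every pplCoA replicate, which held for 7.90% of genes of the class, and neither passed the test. The remaining 3 overlapped: Vwc2 had 148 to 176 CPM in aplCoA and 168 to 192 CPM in pplCoA, Smoc1 155 to 166 CPM and 144 to 169 CPM, and Ccbe1 55.8 to 78.4 CPM and 63.0 to 70.4 CPM. For Smoc1 the log2 fold change was 0.02 ± 0.09 and for Ccbe1 0.06 ± 0.12.

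Smoc1 in VLMCs, at 331, 324 and 509 CPM in aplCoA and 375, 496 and 532 CPM in pplCoA, also overlapped (log2 fold change -0.25 ± 0.18, edgeR adjusted p = 0.791). It was higher in pplCoA in 3 of 3 replicates of equal number, though no label pairs them. With the replicate number as a block, its log2 fold change was -0.27 with an edgeR adjusted p of 0.359. In MOLs it had an adjusted p of 0.935 and in NFOLs of 0.778 by edgeR. Fstl4 in endothelial-like cells was at 282, 39.0 and 90.6 CPM in aplCoA and 310, 520 and 612 CPM in pplCoA (-1.51 ± 0.42, edgeR adjusted p = 0.374), and the call changed without aplCoA replicate 1, at -2.61 with an edgeR adjusted p of 0.00135. The summed level of the 6 glutamatergic markers in this class, of which Neurod6 was at 0, ran from 169 to 395 CPM in aplCoA and from 392 to 462 CPM in pplCoA. The 6 GABAergic markers ran from 2990 to 9947 CPM and from 329 to 4126 CPM. Their part in the result was not tested. For the Fstl4 fit without aplCoA replicate 1, the share of all genes called in the class is not given.

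**Figure D4:**
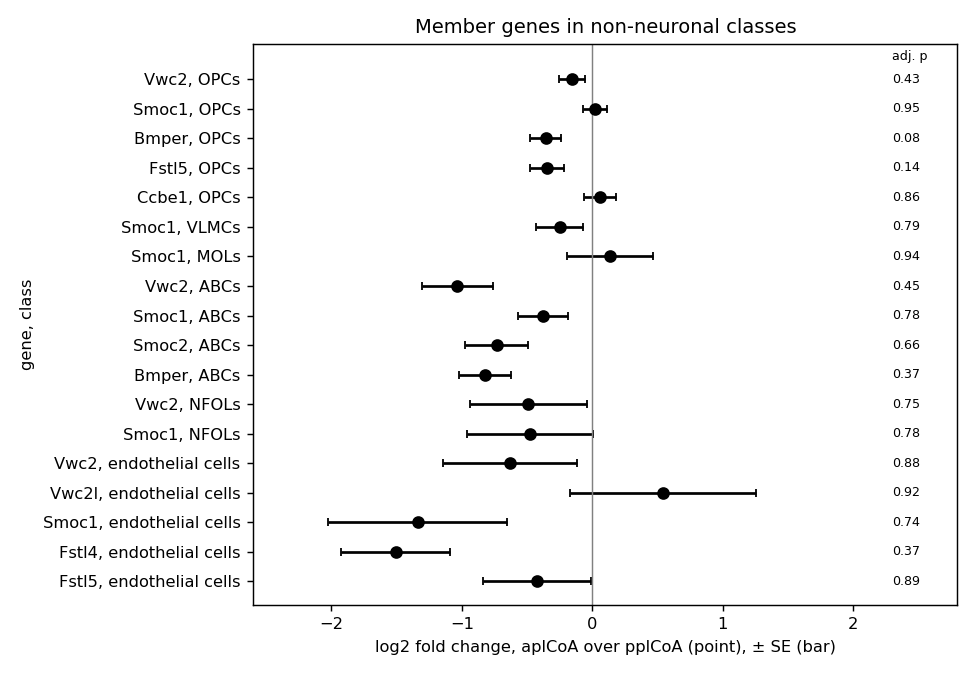
Fitted log2 fold change (aplCoA over pplCoA) ± SE of the 18 tests of the 10 genes in non-neuronal classes, with the adjusted p at the right. The largest shifts are in ABCs and endothelial-like cells, to the side of pplCoA, and no adjusted p is under 0.05.

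Astrocytes are the class where Chrdl1 was highest, but it was seen in too few nuclei to pass the filter. Its aplCoA replicates were at 13.1, 12.4 and 12.0 CPM and its pplCoA replicates at 17.6, 26.8 and 22.8 CPM, 1.79-fold higher on the means, which is the opposite order to its means in glutamatergic neurons. With no filter on the share of nuclei, edgeR's quasi-likelihood test over 24074 genes gave a log2 fold change of -0.86 ± 0.19 and an adjusted p of 0.000799. The summed level of the 6 glutamatergic markers in astrocytes was 31.0 to 75.6 CPM in aplCoA and 25.9 to 46.2 CPM in pplCoA, with overlapping ranges, and its part in the result was not tested. Without the filter Fstl5 was also called in astrocytes (0.88 ± 0.24, edgeR adjusted p = 0.0141), at 15.5, 7.96 and 11.6 CPM in aplCoA and 9.90, 3.59 and 3.79 CPM in pplCoA, which overlapped and lay under its 89.6 to 208 CPM in empty droplets. Thinned to 2000 UMIs, 2.13% of astrocytes in aplCoA and 3.94% in pplCoA had a UMI of Chrdl1, and 0.0843% of microglia.

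The other genes of the pathway, 94 in 11 lists by role, place these modulators among their partners. A list of 6 partners of Ccbe1 and VEGF-C, with Vegfc and Nrp2 among them, is counted here too. It lies outside the BMP signalling described above. None of the 20 BMP and GDF ligands passed the filter in glutamatergic or GABAergic neurons. This filter covers a whole class and can miss a small cluster: Bmp5 was among the leading genes of GABAergic cluster 14, of 173 nuclei. Of the 10 ligands that reached 5 CPM in a class, 5 were highest in ABCs or VLMCs, 3 in astrocytes or NFOLs, Bmp2 in macrophages and Bmp3 in endothelial-like cells. The most abundant were Bmp6 at 2830 ± 279 CPM and Bmp7 at 383 ± 51.6 CPM in VLMCs, Bmp5 at 457 ± 94.1 CPM in ABCs and Bmp4 at 289 ± 69.2 CPM in NFOLs. Receptors were present in neurons, with the type II receptor genes Bmpr2 at 101 ± 5.15 CPM and Acvr2a at 248 ± 55.8 CPM in glutamatergic nuclei, and the type I receptor gene Bmpr1a at 68.7 ± 2.10 CPM. Bmpr1b was highest in astrocytes, at 742 ± 72.7 CPM, as were the target genes Id2 (233 ± 39.4 CPM) and Id4 (221 ± 40.9 CPM). Id1 was higher in ABCs, with means of 155 CPM in aplCoA and 133 CPM in pplCoA, against 49.5 and 20.1 CPM in astrocytes. Id3 had 134 and 87.7 CPM in ABCs, near its 130 and 78.7 CPM in astrocytes. In glutamatergic nuclei Id1 was at 0.533 ± 0.259 CPM.

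In glutamatergic neurons 35 of the 94 genes were tested and 10 were called by edgeR, against 21.1% of all genes. Of these, 3 were higher in aplCoA, against 10.3% of all genes, and 7 in pplCoA, against 10.8%. The median log2 fold change of the 35 was -0.10, against 0.0047 over all genes. Vegfc, the growth factor whose processing Ccbe1 promotes, was at 21.1, 20.8 and 16.5 CPM in aplCoA and 9.13, 7.53 and 6.68 CPM in pplCoA (log2 fold change 1.23 ± 0.14, edgeR adjusted p = 0.00432). Acvr1b, which encodes an activin type I receptor, was also higher in aplCoA, by less (0.34 ± 0.08, edgeR adjusted p = 0.021).

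The 7 genes higher in pplCoA came from 6 of the lists. Inhba, which encodes the subunit of activin A, was at 51.3, 42.1 and 55.4 CPM in aplCoA and 67.2, 93.1 and 88.2 CPM in pplCoA (-0.82 ± 0.14, edgeR adjusted p = 0.0071). The receptor gene Acvr1c (ALK7) was at 14.3, 10.7 and 11.6 CPM and 17.4, 25.3 and 27.2 CPM (-1.001 ± 0.18, edgeR adjusted p = 0.00791), and the type II receptor gene Acvr2a had means of 208 and 288 CPM (-0.55 ± 0.14, edgeR adjusted p = 0.0245). Smad3, which carries activin and TGF-β signals, was at 90.5, 85.6 and 86.0 CPM and 118, 152 and 129 CPM (-0.69 ± 0.10, edgeR adjusted p = 0.00525). Sparcl1, a relative of the Smoc genes in the SPARC family, was lower in aplCoA (-0.51 ± 0.08), as were Smurf2, an E3 ligase for SMADs and receptors (-0.36 ± 0.08), and Nrp2, a neuropilin that binds VEGF-C (-0.26 ± 0.07), with edgeR adjusted p of 0.00551, 0.0173 and 0.0391. Acvr1b, Acvr2a, Smurf2 and Nrp2 lost their call when replicate 1 or 2 of aplCoA or replicate 2 or 3 of pplCoA was left out, and 6 calls remained each time.

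In GABAergic neurons 33 were tested and 2 were called, against 10.0% of all genes. Inhba was at 29.6, 23.9 and 36.9 CPM in aplCoA and 43.9, 65.3 and 50.2 CPM in pplCoA (log2 fold change -0.83 ± 0.16, edgeR adjusted p = 0.00734), in the order it had in glutamatergic neurons. Vegfc was at 26.6, 28.7 and 29.7 CPM and 19.3, 20.5 and 19.9 CPM (0.45 ± 0.12, edgeR adjusted p = 0.0261), and it lost its call when any 1 replicate was left out, while Inhba lost it without aplCoA replicate 1, where no call was left. None of the 222 tests of pathway genes in non-neuronal classes was called by edgeR's quasi-likelihood test, 17 had an unadjusted p under 0.05, against 10.0% of all non-neuronal tests, DESeq2 called 2 and edgeR's likelihood ratio test 3.

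**Figure D5:**
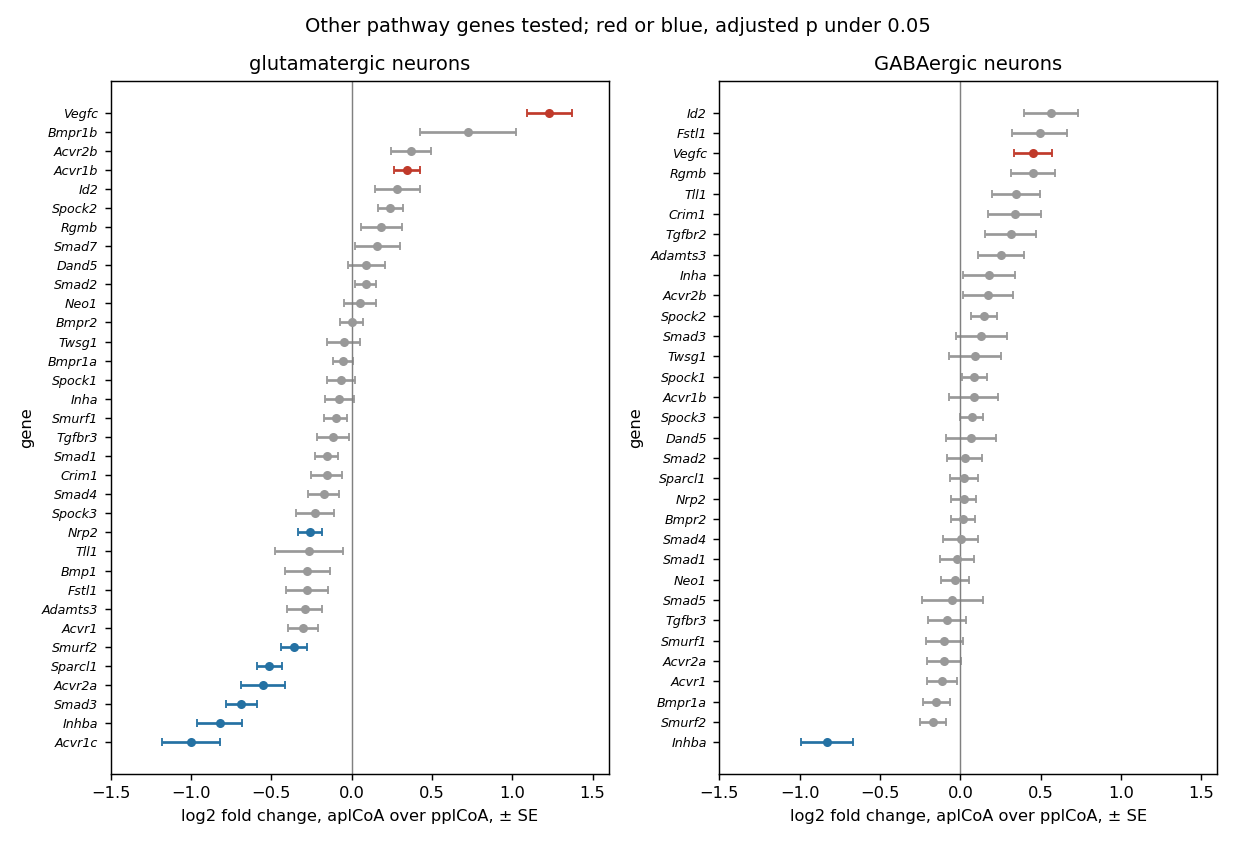
Fitted log2 fold change (aplCoA over pplCoA) ± SE of other pathway genes tested in glutamatergic neurons (left) and GABAergic neurons (right), with genes of an adjusted p under 0.05 in red where higher in aplCoA and blue where higher in pplCoA. Vegfc lies to the right and Inhba to the left in both panels.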

How the data were processed

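Nuclei of aplCoA and pplCoA were profiled by droplet-based single-nucleus RNA sequencing. The authors deposited raw UMI counts per gene and barcode, without filtering or normalization, made with Cell Ranger 5.0.0 against mm10 with introns counted, per the submitters' processing notes and the study's methods. Strand and multi-mapping reads were left to that counter.

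The 10 genes, the gene lists and the markers were chosen with earlier results of these data known. Barcodes with at least 1000 genes were kept up to 5 median absolute deviations above the median of UMIs and 5 interquartile ranges above the upper quartile of mitochondrial and ribosomal percentages, and the highest Scrublet scores, at 1% per 1000 nuclei, were removed as doublets (52201 barcodes to 46403). Pearson residuals (theta 100) of 5000 variable genes other than the 10 gave 50 components and Leiden clusters (resolution 1.0, 15 neighbours; scanpy 1.11.5). A cluster took the class of its highest marker score, or of its second where immature neurons came first without one of their markers among its 10 leading genes by fold (3 clusters, 1927 nuclei), if at least 3 of its markers reached 5 CPM and more than 1 replicate had nuclei in it.

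Counts were summed per class and replicate, and domains were compared by edgeR 4.0.16 (TMM, quasi-likelihood) in R 4.3.3 in classes with at least 10 nuclei in every replicate, for genes with a UMI in at least 10% of nuclei of a domain. Replicates are pools of mice, so that p-values measure the spread between pools, and depth per class limits what can be seen. Named genes were the 10, the called pathway genes, at most 12 in glutamatergic and in GABAergic neurons and 5 in each other class, and the 3 most alike to each of the 10. Some genes that this rule names are not reported here, though counts include them. Alternatives were DESeq2 1.42.0, other scalings, filters, thresholds and depths, doublets kept, and each library or replicate apart. Labels do not say that equal replicate numbers share a batch. Correlations of equal-numbered replicates' deviations were all over 0.1 in microglia (0.142 to 0.606) and VLMCs (0.173 to 0.315), and in no other class. Every class shares the same libraries. In microglia, aplCoA replicate 2 correlated more with pplCoA replicate 3 (0.382) than with pplCoA replicate 2 (0.148). Pairing is therefore not established, and fits with the replicate number as a block are alternatives. RNAscope, spatial and behavioural data were not analysed here.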

Additional observations from a re-analysis of the deposited data

Results flagged for a closer look

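Vwc2l had opposite orders of the domains in 2 neuron classes. The ratio of mean CPM, aplCoA over pplCoA, was 2.04 in glutamatergic neurons, where the aplCoA replicates (56.0 to 67.3 CPM) all lay above the pplCoA replicates (26.9 to 37.1 CPM), and 0.787 in GABAergic neurons, where they (82.8 to 93.5 CPM) all lay below them (107 to 114 CPM). The difference was not tested, since these values chose the gene. Groups of 3 replicates are too small to be searched for single samples that stand apart.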

How the results depend on the processing

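Of the 18 tests of the 10 genes in non-neuronal classes, none was called. Without a filter on the share of nuclei 4 of 84 were, against 1.04% of all genes (Vwc2 in ABCs and Fstl4 in endothelial-like cells, which are among the 18, and Chrdl1 and Fstl5 in astrocytes, which are not). Leaving out 1 replicate gave 0 to 1 calls, and the remaining alternatives except the replicate block gave 0. For leaving out 1 replicate, the share of all genes called is not given, so nothing is read from that count. Pathway genes called in glutamatergic neurons, 10, became 18 without the filter and 5 at an adjusted p under 0.01 and a 1.5-fold change, and 6 to 15 on leaving out 1 replicate. In GABAergic neurons the 2 calls became 5 by the likelihood ratio test, 10 without the filter, 1 at the stricter threshold, 0 and 1 with library 1 or library 2 of aplCoA replicate 1 alone, and 0 to 5 on leaving out 1 replicate. For neurons, no share of all genes called under these alternatives is given, so nothing is read from the changed counts. Vegfc, Acvr1c, Inhba and Smad3 kept their calls in glutamatergic neurons under every alternative run. The share with exactly 1 gene, 57.8%, became 38.1% thinned to 4000 UMIs, 14.8% not thinned, 85.2% without Fstl4 and Fstl5 (chosen after seeing the data), and 56.5% to 58.7% on leaving out 1 replicate. Each cause beyond the genes or samples that an alternative adds or removes was not tested.

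With the replicate number as a block, 1 of the 18 tests was called (Vwc2 in ABCs, log2 fold change -0.997, edgeR adjusted p = 0.0109; its other alternatives ran from 0.00446 to 0.924), and 10 and 2 pathway genes in glutamatergic and GABAergic neurons. The share of all genes called with the block is not given here, so nothing is read from these counts. Replicates of equal number are not shown to be paired in any class. In VLMCs Smoc1 had an edgeR adjusted p of 0.359 with the block, and the block changed no call there.

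Of 200 alternatives for the ratio of the domains for the 10 genes in neurons, 192 moved it by less than the spread between replicates. The order of the domains turned in 0 of the 97 alternatives for the 9 ratios whose replicates were apart. It turned in 11 of the 103 for the 10 whose replicates overlapped, all for Fstl4, Smoc2 or Chrdl1 in GABAergic neurons. Where replicates are apart, leaving out 1 of them cannot turn the order, so the 0 was partly fixed in advance. These levels also chose the genes, so nothing is read from these counts. Without the clusters named by their second score, chosen after seeing the data, the log2 ratio of Vwc2 in glutamatergic neurons was 0.0092 and that of Vwc2l 0.59. Classes of few nuclei (ABCs, endothelial-like cells, NFOLs) limit what depth can show. Cluster shares depend on the resolution: at 0.5 the cluster highest in Vwc2l held 41.9% of its glutamatergic UMIs and that highest in Bmper 16.1%.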
